A study of Homo sapiens with 15 samples.

Results

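H/ACA snoRNAs are the RefSeq genes whose symbol starts with SNORA, and SNORA73A and SNORA73B, a pair with another role in ribosomal RNA processing, were left out. The rule took 195 of the 50037 genes in the deposited table, and it used no measured value. Of these 195 genes, 107 had a count in at least 1 of the 15 libraries. The libraries are small RNA libraries of wild-type cells that the labels call HEK-293, 1 line derived from human embryonic kidney, while the series title names macrophages. All 15 cultures received material derived from very low-density lipoprotein (VLDL) and were collected after 18 h. Of the 3 groups of 5 libraries, the first received VLDL that the titles write as pcDNA:VLDL, without saying what pcDNA stands for. The LPL:VLDL group received the products that lipoprotein lipase (LPL) releases from VLDL lipids. The GKT136901 group received these products together with 20 µM GKT136901, which blocks the superoxide-producing enzymes NOX1 and NOX4. Each group has 1 library from each of 5 culture experiments, numbered 2 to 6 in the labels (replicates 1 to 5), and the labels do not say whether these were separate passages.

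H/ACA snoRNAs are nucleolar RNAs of a pair of hairpins joined by a hinge, the H box, and closed by an ACA triplet near the 3′ end. Each assembles with the pseudouridine synthase dyskerin and with NOP10, NHP2 and GAR1, and bases in a hairpin loop pair with a target RNA and place the uridine that is turned into pseudouridine. Most human copies lie in introns of other genes, among them ribosomal protein genes, translation factor genes and non-coding snoRNA host genes, and are released when the intron is spliced and trimmed, so they are used as a readout of host transcription as well as of the modification machinery.

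The sequences below are those of H/ACA snoRNAs with high counts that differed between libraries and of a pair of lettered copies from 1 host gene. Capitals mark the ACA box. SNORA81 follows, and there capitals mark the bases that are also annotated as MIR1248. The sequences were read from GENCODE release 29 transcripts on the GRCh38 build. They are written 5′ to 3′ as DNA, SNORA81 over the interval used for counting. SNORA62 lies at chr3:39411054-39411206 on the plus strand in RPSA, a ribosomal protein gene. SNORA63 lies at chr3:186787300-186787431 and SNORA81 at chr3:186786676-186786852, both on the plus strand in EIF4A2, a translation initiation factor gene. SNORA47 lies at chr5:77080434-77080571 on the minus strand in ZBED3. SNORA3A at chr11:8684227-8684356 and SNORA3B at chr11:8685439-8685569 lie on the plus strand in RPL27A, a ribosomal protein gene.
SNORA62: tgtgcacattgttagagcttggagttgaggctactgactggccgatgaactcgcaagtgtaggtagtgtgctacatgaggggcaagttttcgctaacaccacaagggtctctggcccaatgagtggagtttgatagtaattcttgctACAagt
SNORA63: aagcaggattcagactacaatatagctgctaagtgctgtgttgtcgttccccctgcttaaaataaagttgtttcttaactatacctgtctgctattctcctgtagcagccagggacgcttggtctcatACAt
SNORA47: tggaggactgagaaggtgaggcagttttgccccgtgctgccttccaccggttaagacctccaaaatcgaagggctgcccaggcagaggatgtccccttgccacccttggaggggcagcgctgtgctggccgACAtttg
SNORA3A: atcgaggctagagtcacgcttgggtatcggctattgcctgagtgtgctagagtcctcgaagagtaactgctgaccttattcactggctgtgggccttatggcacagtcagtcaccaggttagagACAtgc
SNORA3B: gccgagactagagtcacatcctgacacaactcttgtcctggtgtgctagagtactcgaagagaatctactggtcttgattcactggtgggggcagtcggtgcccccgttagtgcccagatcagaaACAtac
SNORA81: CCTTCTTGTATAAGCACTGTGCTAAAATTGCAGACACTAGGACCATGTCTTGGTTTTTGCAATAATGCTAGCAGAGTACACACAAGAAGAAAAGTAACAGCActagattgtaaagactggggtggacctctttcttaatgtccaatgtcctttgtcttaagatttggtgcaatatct
Of the 195 genes, 143 had a matching GENCODE sequence. The letters ACA stood within the last 8 bases of 132 of these 143 sequences (92.3%), against 14 of 282 C/D box snoRNA sequences of the same annotation (4.96%). The letters ANANNA, the core of the H box, stood in bases 51 to 90 of 135 of the 143 (94.4%). In a window of the same length, 12899 of 35116 RefSeq promoters (36.7%) held them, both read on the given strand only. These sets were not matched in base composition, and its part in the difference was not tested. The counted interval of SNORA81 has no ACA within its last 8 bases. A match describes the letters and not the binding of a protein.

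Depth ran from 5076917 to 9757123 counts per library. The C/D box class, which guides ribose methylation, held 47.5 to 65.9% of the counts and miRNAs 30.2 to 48.7%, while H/ACA snoRNAs held 0.0883 to 0.196%. Of 12 genes typical of HEK-293 cells, 6 had a count, 16 counts in all, with EPCAM, INA, KRT18, KRT8, LIN28B and NEFM at 0, and their summed level lay between 0 and 0.624 CPM (the count scaled to a common library total) in every library. Of 18 myeloid genes, 16 had a count, 6293 counts in all, with AIF1 and C1QA at 0. Their summed level was 36.8 to 103 CPM in VLDL libraries, 25.7 to 121 CPM in LPL:VLDL libraries and 27.8 to 78.6 CPM in GKT136901 libraries, and it was higher in the 3 libraries of experiment 2 (78.6 to 121 CPM) than in the other experiments (25.7 to 53.3 CPM). These are fragments of mRNAs in a small RNA library, and their part in the results was not tested. The LPL:VLDL library of experiment 3 stood apart for many H/ACA snoRNAs. It held the highest TMM-scaled level of 22 of the 65 tested members, against 8.0% of all 4099 tested genes, and the main results it bears on are given with and without it. With library size alone as the scaling, it held the highest level of 10 of the 65 members and 2.68% of all genes.

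Detection followed a wide range of counts. Among the 107 members with a count, 18 had 1 to 9 counts over all libraries, 22 had 10 to 99, 37 had at least 100 but fewer than 1000 and 30 had at least 1000. A count was present in every library for 70 members, and 80 to 91 members were counted in a given library. Enough counts for the test were present for 65 members, which held 187510 of the 188889 H/ACA counts. The filter kept a gene with enough counts in any 5 libraries, and the 42 counted members that did not pass it had at most 115 counts each. In comparison, 224 of 399 C/D snoRNA genes and 21 of 31 Cajal body RNA genes (SCARNA) had a count. The counts depend on how the authors assigned reads. A read over exons of more than 1 gene, or mapped to more than 1 place, is not assigned. All 13 members that lie wholly inside an exon of another gene had 0 counts, as had all 15 copies on unplaced or alternate sequences. Of the 173 members with no base in an exon of another gene, 101 were counted. Chromosomal genes that the 15 copies repeat, such as SNORA38, SNORA10 and SNORA64, also had 0 counts. So had pairs of identical sequence, such as SNORA59A and SNORA59B. These 0 counts do not show that the RNA was absent.

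Counted members are 121 to 250 bases long. In these small RNA libraries their levels are levels of reads, and how these follow the amount of each RNA was not tested. SNORA18 had the highest level in every library group and held 33.3% of all H/ACA counts. Its level over 15 libraries was 3593 CPM per kilobase ± 1432 (SD, n = 15), on the scale of TMM-scaled CPM divided by gene length. The next were SNORA3B at 637 CPM per kilobase ± 178, SNORA63 at 587 ± 193, SNORA62 at 574 ± 231 and SNORA47 at 422 ± 340 (SD, n = 15 each), and the neighbours in this order after SNORA18 differed by less than 1 SD. SNORA63 and SNORA62, also called E3 and E2, guide pseudouridylation of 28S rRNA. SNORA20, SNORA66, SNORA16A, SNORA7B and SNORA3A followed at 375 to 213 CPM per kilobase. The 10 members with the most counts held 69.7% of the H/ACA counts. The 65 tested members spanned 527-fold, from SNORA18 to SNORA80B at 6.82 CPM per kilobase, with a median of 52.9 CPM per kilobase. The coefficient of variation over libraries ran from 20.2% for SNORA74A to 84.0% for SNORA14A, with a median of 37.2%.

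**Figure D1:**
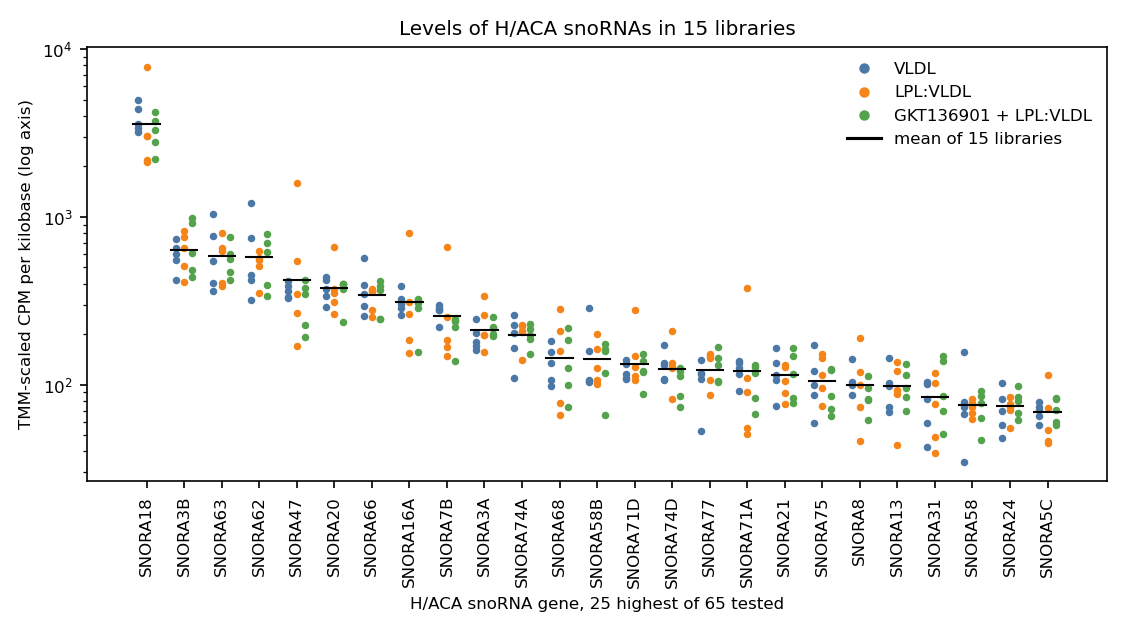
Levels of the 25 tested H/ACA snoRNAs with the highest means, in TMM-scaled CPM per kilobase on a log axis. Each library is 1 point coloured by group, and a black line marks the mean of 15 libraries. SNORA18 sits at 3593 CPM per kilobase, above SNORA3B at 637, and 1 LPL:VLDL point lies far above the others for SNORA47, SNORA16A, SNORA7B and SNORA71A.

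The last 40 of the 132 bases of SNORA18 overlap an exon of TAF1D in the annotation, so its 62895 counts come from reads that do not reach those bases, and TAF1D itself had 131 counts. SNORA31 loses 74 bases to an exon of TPT1 in the same way. SNORA81 shares its first 102 bases, the capitals in its sequence above, with MIR1248. A read over the shared bases was assigned to neither gene, and MIR1248 had 0 counts while SNORA81 had 233. The miRNA genes MIR1291, MIR664A, MIR664B and MIR3651, which overlap other H/ACA snoRNAs, also had 0 counts.

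Lettered copies of a snoRNA differed widely in level. SNORA3A and SNORA3B, whose sequences above are 70.6% identical, come from introns of the same gene, and SNORA3B was 2.99 times as high per kilobase. SNORA20 was 29.4 times as high as SNORA20B, at 92.4% identity. SNORA63 was 79.2 times as high as SNORA63B, at 71.9% identity, although both lie in EIF4A2. SNORA21 was 8.29 times as high as SNORA21B within RPL23, at 62.7% identity. In the SNORA71 family of SNHG17, SNORA71A reached 121 and SNORA71D 133 CPM per kilobase, which overlap over libraries, and SNORA71B 43.2. SNORA74A was 11.3 times as high as SNORA74B and 1.60 times as high as SNORA74D, at 67.0 and 53.0% identity. In the SNORA80 family, SNORA80E reached 67.2 CPM per kilobase against 10.6 for SNORA80A and 6.82 for SNORA80B. SNORA11F reached 31.5 CPM per kilobase, against 19.5 for SNORA11 and 14.5 for SNORA11B, at 85.7 and 86.8% identity. SNORA50C was 1.64 times as high as SNORA50A, at 59.3% identity. SNORA58B was 1.87 times as high as SNORA58 per kilobase, on annotated lengths of 136 and 236 bases, while their means before division by length were 19.4 and 17.96 CPM. Reads that mapped to several copies were not assigned to any of them, so these ratios rest on the remaining reads. How many reads each copy lost in this way cannot be read from the counts. The ratios are therefore uncertain wherever copies are alike in sequence.

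Members from 1 host gene also differed in level. Of the 107 counted members, 98 lie inside a gene on the same strand. TAF1D hosts 6 counted members, with SNORA18 at 3593, SNORA8 at 99.6, SNORA32 at 56.9, SNORA25 at 17.1, SNORA40 at 16.3 and SNORA1 at 5.5 CPM per kilobase, a span of 653-fold. In EIF4A2, SNORA63 reached 587 CPM per kilobase, against 9.92 for SNORA81, 7.41 for SNORA63B and 3.46 for SNORA4. In RPSA, SNORA62 was 12.0 times as high as SNORA6, and in TBRG4 SNORA5C was 179 times as high as SNORA5B. Among hosts with at least 2 tested members, the closest levels were those of SNORA74A and SNORA74D in MATR3 and SNHG4, 1.60-fold apart, and of SNORA46 and SNORA50A in CNOT1, 1.69-fold apart. SNORA44 of SNHG12 had 4 counts, but 88 of its 132 bases overlap an exon of its host. Reads over 102 bases of SNORA81 and 40 bases of SNORA18 were likewise not assigned. Their levels are still divided by the full length, which lowers them. Ribosomal protein genes hosted 14 tested members with a median of 50.1 CPM per kilobase and 22.1% of the H/ACA counts. Non-coding snoRNA host genes (SNHG) hosted 8 tested members with a median of 122 CPM per kilobase and 11.1% of the counts.

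**Figure D2:**
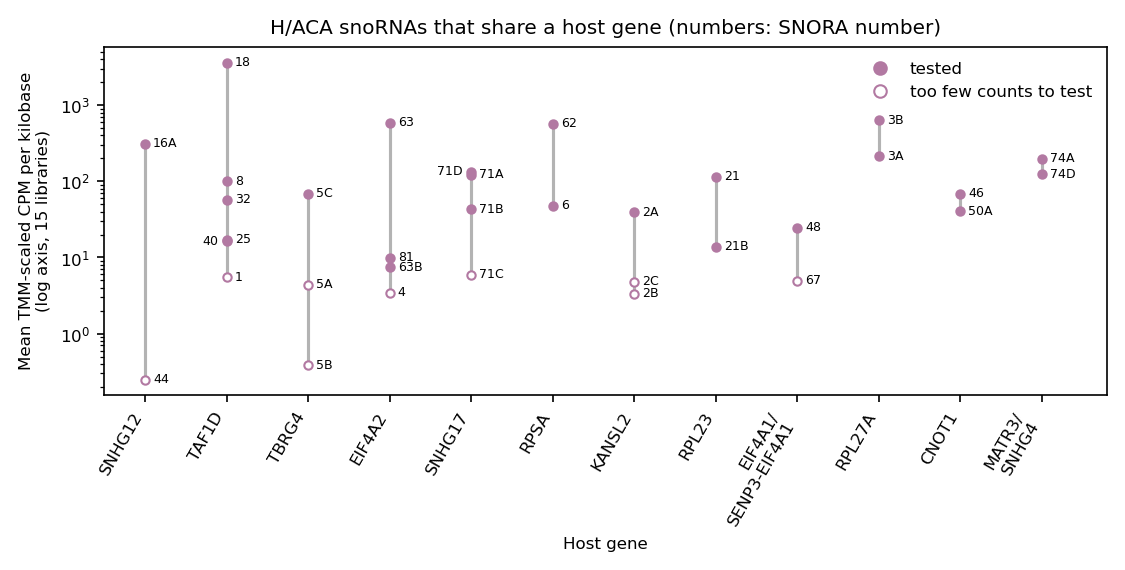
Mean levels over 15 libraries of H/ACA snoRNAs that share a host gene, in TMM-scaled CPM per kilobase on a log axis, with 1 point per snoRNA, filled where it had enough counts for the test. Hosts are shown where at least 2 members were counted and the highest reached 20 CPM per kilobase. The members of TAF1D span 653-fold and those of CNOT1 1.69-fold.

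The first question of the design is whether the lipid products that LPL makes change small RNAs. In the summed H/ACA share, no difference between groups passed a test. The share of all counts was 0.155% ± 0.0348 in the VLDL group, 0.136% ± 0.0453 in the LPL:VLDL group and 0.137% ± 0.0344 in the GKT136901 group (SD, 5 libraries each). In experiments 2 to 6 in turn it was 0.196, 0.189, 0.139, 0.123 and 0.127% with VLDL. With LPL:VLDL it was 0.171, 0.192, 0.133, 0.0959 and 0.0883%. With GKT136901 it was 0.180, 0.148, 0.154, 0.0964 and 0.108%. All 3 groups overlapped, and experiments 2 and 3 were high and experiments 5 and 6 low in the VLDL and LPL:VLDL groups. LPL:VLDL was below VLDL in 4 of 5 experiments, a mean difference of -0.0187 percentage points (exact permutation test, two-sided, p = 0.492, adjusted p = 0.738 over 3 comparisons), and the exact sign-flip test within experiments gave p = 0.125. The permutation test does not pair libraries, so its spread includes that between experiments. With 5 experiments the sign-flip test cannot give a p under 0.05. The difference between LPL:VLDL and VLDL ran from -0.0326 without the LPL:VLDL library of experiment 3 to -0.00673 without that of experiment 6. GKT136901 was below VLDL in 4 of 5 experiments, a difference of -0.0175 percentage points (exact permutation test, p = 0.437, adjusted p = 0.738; sign-flip p = 0.125), and ran from -0.0281 without the GKT136901 library of experiment 2 to -0.00722 without the VLDL library of that experiment. GKT136901 was above LPL:VLDL in 4 of 5 experiments, by 0.00118 percentage points (exact permutation test, p = 0.976; sign-flip p = 0.938), and it turned below 0, to between -0.0015 and -0.0108, without any 1 of the LPL:VLDL libraries of experiments 5 and 6 or the GKT136901 libraries of experiments 2, 3 and 4. In bulk RNA, fewer cells of a type and less RNA per cell cannot be told apart.

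Set against C/D snoRNAs, which removes the part of the share that moves with miRNA, H/ACA snoRNAs stood at 1.68 to 3.23 counts per 1000 C/D counts. On the log2 scale the ratio was -8.57 ± 0.25 in the VLDL group, -8.77 ± 0.34 in the LPL:VLDL group and -8.69 ± 0.26 in the GKT136901 group (SD, 5 libraries each). The differences were -0.20 for LPL:VLDL against VLDL, 0.07 for GKT136901 against LPL:VLDL and -0.12 for GKT136901 against VLDL, with p = 0.317, 0.643 and 0.444 by the exact permutation test and 0.643 after adjustment in each case. The exact sign-flip test within experiments gave p = 0.125, 0.3125 and 0.375 in the same order.

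**Figure D3:**
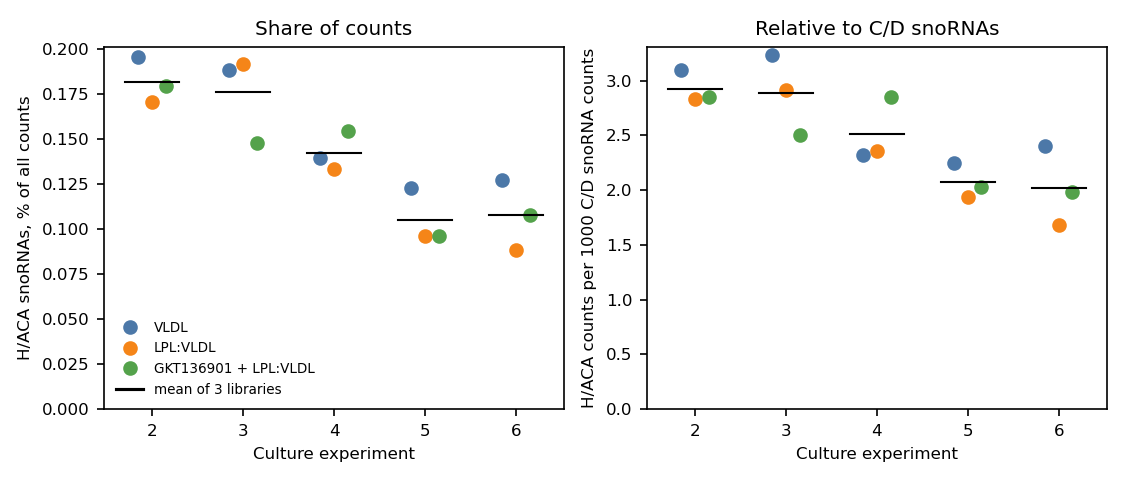
H/ACA snoRNAs as a percent of all counts (left) and per 1000 C/D snoRNA counts (right) against the culture experiment, with 1 point per library coloured by group and a black line at the mean of the 3 libraries of an experiment. Means fall between 0.182% in experiment 2 and 0.105% in experiment 5, and the 3 groups overlap.

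No H/ACA snoRNA passed the test between LPL:VLDL and VLDL libraries. By edgeR's quasi-likelihood test 0 of 65 members were called, against a background of 0% of 4099 genes at an adjusted p under 0.05. At an unadjusted p under 0.05, 1 member passed, against 1.88% of all genes. With the experiment in the model as a block, 0 members were called against 0.0244% of genes, and 1 member had an unadjusted p under 0.05 against 4.2% of genes. DESeq2 and limma voom also called 0 members. The members divided into 31 above 0 and 34 below, with a median log2 difference of -0.01, beside 0.01 over all genes. With the experiment as a block, 26 members were above 0 and 39 below, with a median of -0.04 beside -0.001 for all genes. Without the LPL:VLDL library of experiment 3, 20 members were above 0 and 46 below, and 0 members were called. The median was then -0.17, beside -0.02 for all genes. That fit had no block and kept the VLDL library of experiment 3, so the groups no longer held the same experiments. Without the VLDL library of experiment 3 the median was 0.10. With library size as the only scaling, which moved the median of all genes by -0.12, the division was 17 above 0 and 48 below.

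The member with the lowest unadjusted p was SNORA81, the snoRNA that shares bases with MIR1248. In experiments 2 to 6 it stood at 1.05, 4.28, 1.36, 3.15 and 2.89 CPM with VLDL and at 1.39, 0.277, 1.39, 0.766 and 1.07 CPM with LPL:VLDL. LPL:VLDL was lower in experiments 3, 5 and 6 and slightly higher in experiments 2 and 4, and the groups overlapped. The log2 difference was -1.35 (SE 0.56; edgeR adjusted p = 0.999), on 2 to 42 counts per library. With GKT136901 it stood at 2.17, 2.61, 1.41, 1.94 and 0.572 CPM, with a mean of 1.74 CPM between those of the LPL:VLDL group (0.979 CPM) and the VLDL group (2.55 CPM).

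SNORA47, hosted in ZBED3, was set apart by 1 library. With VLDL it stood at 53.6, 57.3, 45.6, 46.2 and 50.2 CPM in experiments 2 to 6, a narrow range. With LPL:VLDL it stood at 37.0, 221, 75.8, 23.3 and 47.9 CPM, so the library of experiment 3 alone exceeded 100 CPM. With GKT136901 it stood at 31.2, 52.3, 47.7, 26.4 and 58.3 CPM. The log2 difference between LPL:VLDL and VLDL was 0.68 (SE 0.39; edgeR adjusted p = 0.999), and -0.14 without the LPL:VLDL library of experiment 3. The other members with the lowest p in this comparison were SNORA19 (-0.92, SE 0.53), SNORA80B (0.93, SE 0.75), SNORA74B (0.48, SE 0.39) and SNORA71D (0.34, SE 0.28), each with an edgeR adjusted p of 0.999, and without that library SNORA74B differed by 0.06 and SNORA71D by 0.01. SNORA11F was higher with LPL:VLDL in 5 of 5 experiments and SNORA6 lower in 5 of 5, 1 member each way, against 3.44% and 3.46% of all genes.

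The next comparison asks whether the NADPH oxidase inhibitor alters the response to the lipid products, and again 0 of 65 members were called between GKT136901 and LPL:VLDL libraries, against 0% of all genes by edgeR's quasi-likelihood test. At an unadjusted p under 0.05 it was 1 member, SNORA47, against 2.12% of all genes, and DESeq2 and limma voom called 0 members. With the block, 0 members were called against 0% of genes, and 1 had an unadjusted p under 0.05 against 3.68% of genes. The median log2 difference was -0.04, with 26 members above 0 and 39 below, beside -0.02 for all genes. With the block, the median was -0.06, with 28 members above 0 and 37 below, beside -0.009 for all genes. Without the block and the LPL:VLDL library of experiment 3, it turned to 0.08, with 41 members above 0 and 25 below. The GKT136901 library of that experiment was kept there. With library size as the only scaling and no block, it was 0.04, with 35 above 0 and 30 below. SNORA47 differed by -0.91 (SE 0.39; edgeR adjusted p = 0.9996), and by -0.10 without the LPL:VLDL library of experiment 3. SNORA28, a guide of 18S rRNA in an intron of EIF5, stood at 5.12, 2.77, 4.40, 2.52 and 3.35 CPM with LPL:VLDL in experiments 2 to 6. With GKT136901 it stood at 7.76, 5.63, 4.77, 4.45 and 3.77 CPM, higher in each experiment, although the groups overlapped. The difference was 0.53 (SE 0.39; edgeR adjusted p = 0.9996). SNORA19 was also higher in 5 of 5 experiments and SNORA75 lower in 5 of 5, that is 2 members higher and 1 lower against 3.2% and 3.32% of all genes. SNORA74B (-0.62, SE 0.40), SNORA55 (0.54, SE 0.37), SNORA81 (0.79, SE 0.56) and SNORA74D (-0.39, SE 0.28) were the other members with the lowest p. Without the LPL:VLDL library of experiment 3, SNORA74B stood at -0.22 and SNORA74D at -0.18, and SNORA55 stood at 0.22 without the GKT136901 library of experiment 4.

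GKT136901 and VLDL libraries also gave 0 called members of 65, against 0% of all genes by edgeR, with 0 members and 2.22% of all genes at an unadjusted p under 0.05, and DESeq2 and limma voom called 0 members. With the block, the counts were 0 members called against 0% of genes and 0 members against 4.32% of genes at an unadjusted p under 0.05. This comparison shares its libraries with the others. The median log2 difference was -0.12, with 24 members above 0 and 41 below, beside -0.004 for all genes, and each alternative scaling left more members below 0 than above. Without 1 library the median ran from -0.19, without the GKT136901 library of experiment 4, to 0.02, without the VLDL library of experiment 3. SNORA18 stood at 656, 577, 447, 469 and 425 CPM with VLDL in experiments 2 to 6. With GKT136901 it stood at 555, 493, 433, 290 and 368 CPM, lower in each experiment, and the groups overlapped. With LPL:VLDL it stood at 399, 1036, 400, 280 and 287 CPM, below VLDL except in experiment 3. The log2 difference between GKT136901 and VLDL was -0.27 (SE 0.28) without and -0.29 (SE 0.16) with the experiment in the model (edgeR adjusted p = 0.999 and 0.997). Between LPL:VLDL and VLDL it was -0.10, and -0.25 (SE 0.16) with the experiment in the model. It was -0.60 without the LPL:VLDL library of experiment 3, in a fit without a block that kept the VLDL library of that experiment. SNORA6, SNORA7B and SNORA14A also had lower values under GKT136901 than under VLDL in 5 of 5 experiments, and SNORA11F higher, that is 4 members lower and 1 higher against 3.73% and 3.66% of all genes. The members with the lowest p were SNORA74D (-0.33, SE 0.28), SNORA9 (-0.35, SE 0.31), SNORA6 (-0.33, SE 0.30), SNORA81 (-0.56, SE 0.54), SNORA65 (-0.35, SE 0.34) and SNORA77 (0.29, SE 0.29), with an edgeR adjusted p of 0.999 each. SNORA77 stood at 0.11 without the VLDL library of experiment 2, and SNORA81 at -0.30 without that of experiment 3.

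**Figure D4:**
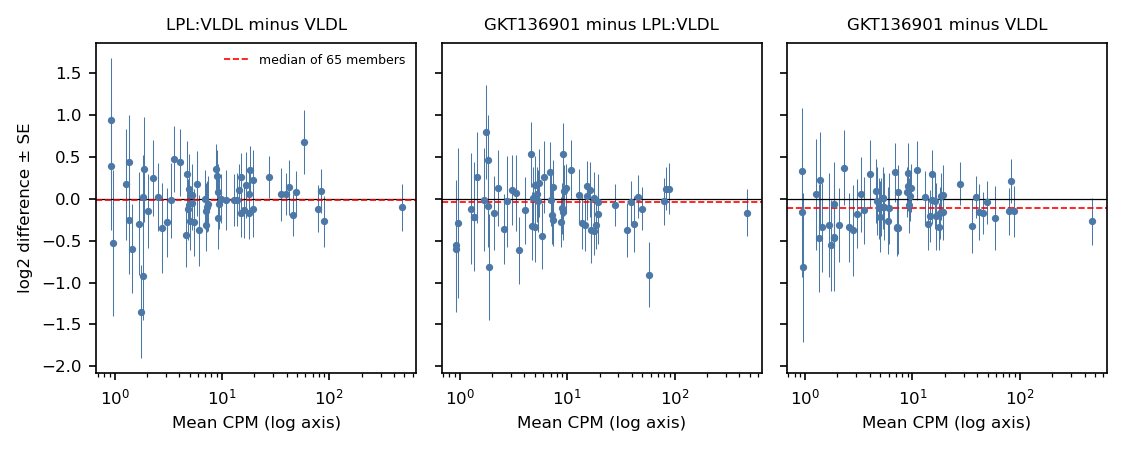
Log2 differences with their standard errors of the 65 tested H/ACA snoRNAs against their mean TMM-scaled CPM (log axis), 1 panel per comparison, with a dashed red line at the median of the members. The medians lie at -0.01, -0.04 and -0.12, and the bars of most members cross 0.

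Grouped by the ribosomal RNA they guide, members showed the same lack of called differences. The lists were matched by symbol only. SNORA42 of the 18S rRNA list and SNORA34 of the 28S rRNA list are not symbols of the annotation used for counting. Their genes under any other symbol were not included. Of 27 listed symbols of 18S rRNA guides, 23 had a count and 15 were tested. Their medians were 0.002, 0.03 and -0.03 for LPL:VLDL against VLDL, GKT136901 against LPL:VLDL and GKT136901 against VLDL, with 8, 8 and 7 of 15 above 0. Of 19 listed guides of 28S rRNA, 14 had a count and 13 were tested, with medians of -0.02, -0.03 and -0.14 and 5, 5 and 4 of 13 above 0. Members hosted in ribosomal protein genes had 6, 5 and 4 of 14 above 0. Members hosted in SNHG genes had 7, 1 and 3 of 8 above 0, with medians of 0.10, -0.31 and -0.19, and with the experiment as a block 5, 1 and 3 of 8, with medians of 0.04, -0.18 and -0.18. These divisions rested in part on the LPL:VLDL library of experiment 3. Leaving it out kept the VLDL and GKT136901 libraries of that experiment, so the groups no longer held the same experiments. Without that LPL:VLDL library, members of SNHG genes had 3, 3 and 3 of 8 above 0, with medians of -0.09, -0.01 and -0.20. Without it, the guides of 18S rRNA had 3, 12 and 7 of 15 above 0 and those of 28S rRNA 3, 8 and 4 of 13. Among the genes of the particle itself, the telomerase RNA TERC, which also carries an H/ACA domain, had 169 counts and was tested, at 1.33 CPM ± 0.984 (SD, n = 15) and an edgeR adjusted p of 0.999 between LPL:VLDL and VLDL. DKC1, which encodes dyskerin, had 100 counts as mRNA fragments, the assembly factors NAF1 and SHQ1 had 42 and 20, GAR1 had 34 and NHP2 32, and NOP10 was at 0, all too few to test.

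Differences were called between culture experiments, which cut across the treatments. By edgeR's quasi-likelihood F test of the 5 experiments, with the group in the model, 14 of 65 members were called, against 11.1% of all genes. Calls followed the count: among members with at least 2000 counts over the 15 libraries 12 of 19 were called, beside 246 of 382 genes of that depth, among those with at least 500 but fewer than 2000 counts 2 of 27 beside 140 of 480, and among those with fewer 0 of 19 beside 69 of 3237. These count limits were chosen after the data were seen, and at the highest depth the share of members called, 63.2%, was near that of all genes, 64.4%. Among the 14, the level was highest in experiment 3 for 11 members, in experiment 2 for 2 and in experiment 6 for 1. Without the LPL:VLDL library of experiment 3, these numbers were 7, 4 and 1, with 2 members highest in experiment 4. With all libraries it was lowest in experiment 5 for 9, in experiment 6 for 3 and in experiment 2 for 2. With library size as the only scaling, 8 were highest in experiment 3 and 5 in experiment 2. Myeloid fragments, which were highest in experiment 2, and the miRNA share, which had means of 31.1, 35.05, 38.8, 45.8 and 43.4% in experiments 2 to 6, also differed between experiments, and their part was not tested.

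SNORA62, the RPSA-hosted 28S rRNA guide, had the lowest p. In experiment 3 it stood at 186, 88.0 and 122 CPM with VLDL, LPL:VLDL and GKT136901, and in experiment 5 at 49.3, 54.5 and 60.3 CPM, so these experiments did not overlap. The means of experiments 3 and 5 were 2.41-fold apart (edgeR adjusted p = 0.000482). SNORA63, the EIF4A2-hosted 28S rRNA guide, stood at 140, 108 and 103 CPM in experiment 3 and at 48.6, 52.4 and 63.3 CPM in experiment 5, which did not overlap either (2.14-fold, edgeR adjusted p = 0.000602). SNORA68, a 28S rRNA guide, stood at 20.9, 27.8 and 28.9 CPM in experiment 2 and at 13.1, 8.72 and 13.3 CPM in experiment 6. It was low in both experiments 5 and 6. Its highest and lowest means were those of experiments 3 and 5, 2.30-fold apart (edgeR adjusted p = 0.00135), and without the LPL:VLDL library of experiment 3 its highest was that of experiment 2, 2.26 times its lowest. SNORA18 differed 2.03-fold between experiments 3 and 5 (edgeR adjusted p = 0.00171), and without the LPL:VLDL library of experiment 3 its highest mean was in experiment 2, 1.55 times its lowest. SNORA66, an 18S rRNA guide in RPL5, stood at 76.1, 49.2 and 55.1 CPM in experiment 3 and at 34.2, 33.6 and 32.7 CPM in experiment 5 (edgeR adjusted p = 0.00567).

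A few members had another order of experiments. SNORA53, hosted in SLC25A3, was lowest in experiment 2, at 5.10, 9.73 and 9.93 CPM, and reached 26.5, 16.3 and 19.1 CPM in experiment 3 (2.5-fold, edgeR adjusted p = 0.00596). Its call was lost with library size as the only scaling (adjusted p = 0.189), without experiment 2 (0.893) and without the VLDL library of that experiment (0.0975). SNORA74A was lowest in experiment 2 as well, at 22.1, 28.2 and 30.4 CPM, and highest in experiment 6, at 52.4, 45.6 and 46.1 CPM (1.79-fold, edgeR adjusted p = 0.0220). SNORA31 and SNORA3B were highest in experiment 2 and lowest in experiment 6, 2.30-fold and 1.66-fold apart. SNORA58B, SNORA75, SNORA47, SNORA16A and SNORA7B completed the 14, with edgeR adjusted p of 0.00596, 0.00678, 0.00679, 0.00945 and 0.0270. For SNORA47, SNORA16A and SNORA7B the ratio of the highest to the lowest experiment was 3.44, 2.58 and 2.31, and without the LPL:VLDL library of experiment 3 it was 1.76, 1.77 and 1.54. Without that library, 15 members were called, 13 of them among the 14, and SNORA7B was no longer called (edgeR adjusted p = 0.145). The share of all genes called without that library is not given here. Of the 13 tested guides on the 28S rRNA list, 7 were called (SNORA62, SNORA63, SNORA68, SNORA75, SNORA31, SNORA74A and SNORA7B). Of the 15 tested guides on the 18S rRNA list, 1 was called (SNORA66). Whether the lists hold all guides was not checked. The guides of 28S rRNA had a median of 1927 counts and those of 18S rRNA 1222, and the difference between the lists was not tested. Among guides with at least 2000 counts, where 64.4% of all genes were called, 5 of 6 guides of 28S rRNA and 1 of 4 of 18S rRNA were called, and among guides with fewer 2 of 7 and 0 of 11.

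**Figure D5:**
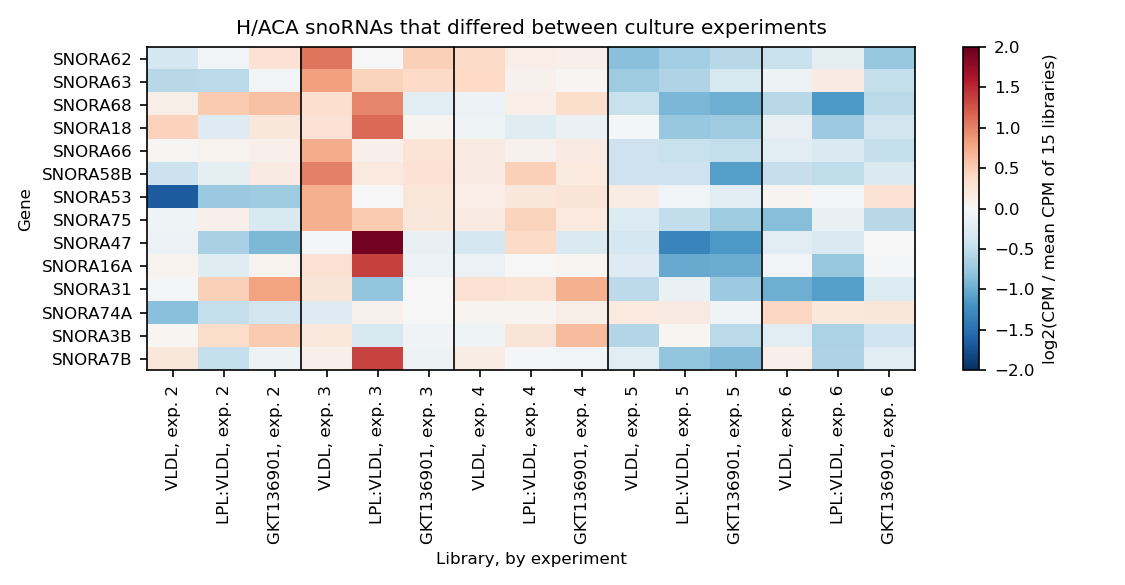
Levels of the 14 H/ACA snoRNAs called between culture experiments, as log2 of TMM-scaled CPM over the mean of 15 libraries, with libraries in columns ordered by experiment and black lines between experiments. Red cells gather in experiment 3 and blue cells in experiment 5, and SNORA53 and SNORA74A are lowest in experiment 2.

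The LPL:VLDL library of experiment 3 divided the members. Besides SNORA47, it was the highest of 15 libraries for SNORA71A at 52.1 CPM, 3.34 times the median of the other libraries, and for SNORA7B and SNORA16A at 2.74 and 2.72 times. SNORA18 was 2.42 times and SNORA71D 2.31 times the median of the others there. SNORA62, SNORA66, SNORA58B and SNORA3B were not highest in it, with SNORA62 at 88.0 CPM against 186 CPM in the VLDL library of the same experiment. The VLDL library of experiment 3 held the highest level of 14 of the 65 members, against 5.03% of all genes. The TMM factor of the LPL:VLDL library was 0.765, against 1.01 for VLDL and 0.983 for GKT136901 in that experiment, and its H/ACA share of 0.192% was near the 0.189% of the VLDL library.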

How the data were processed

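Small RNA sequencing of 15 libraries (3 groups of 5) was analysed. The deposited table holds the authors' raw read counts per gene, without normalization. Per the file headers, featureCounts 2.0.6 summed reads over the exons of each RefSeq gene. Its command set no option for strand, for multiple mapping or for overlap between genes. A read over exons of more than 1 gene, or mapped to more than 1 place, was therefore not assigned, and strands cannot be separated. Per the submitters' processing notes, fastp 0.24.0, STAR 2.7.11b and hg38 were used, with DESeq2 1.46, edgeR 4.4.2 and R 4.4.2 also listed, their use not given. Read numbers before counting were not analysed here, and precision is limited by 5076917 to 9757123 counts per library.

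Members and lists were chosen with earlier results of these data known. Genes passing filterByExpr (minimum count 10, minimum total 15) numbered 4099, with 99.7% of the counts. They were scaled by TMM and tested with edgeR 4.0.16 (R 4.3.3), quasi-likelihood F test, two-sided, all 3 groups in 1 model, Benjamini-Hochberg over 4099 genes, threshold 0.05. Experiments were tested with the group in the model. Shares were compared by exact permutation tests. Levels between genes are CPM per kilobase of gene length. The named members are the 10 with the highest levels, the 6 with the lowest p in each treatment comparison, the 8 with the lowest p between experiments, and lettered copies with at least 2 tested. Other members were named after their values were seen. Sequences came from GENCODE release 29 (GRCh38), promoters from RefSeq, and identities from global alignments (Biopython 1.88), and the sequence of SNORA18 is not reported here. The procedure was tested on simulated data.

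Replicate numbers pair the libraries, since the labels tie each to 1 culture experiment. For 15 same-experiment pairs, correlations of deviations from the group mean over all tested genes were 0.0664 to 0.378, with a median of 0.115. Over the tested H/ACA members they were -0.115 to 0.427, with a median of 0.134. Pairs of libraries of a group differed by 8.59 to 167 chi-square per degree of freedom over genes, so each was counted separately. The p-values cover only the spread seen among these libraries, and part of it may be technical. Alternatives were the experiment as a block, 2 other scalings, 2 other filters, DESeq2 1.42.0, limma 3.58.1 voom, and leaving out each library or experiment 2. Where 1 library was left out, the other libraries of its experiment were kept, so the groups no longer held the same experiments.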

Additional observations from a re-analysis of the deposited data

Results flagged for a closer look

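The level of named H/ACA snoRNAs was checked for a library that stood apart from the other 4 of its group by more than Dixon's limit for 5 values. Of 132 groups checked (42 members in 3 groups, and the share and the ratio to C/D snoRNAs), 14 held such a library. The limit is set to flag about 1 in 20 independent groups of normal values. These groups shared the same 15 libraries, and many members were named for differences in these data. The count of 14 therefore cannot be set against that rate.

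The LPL:VLDL library of experiment 3 was high for 7 members. SNORA47 stood at 221 CPM there against 23.3 to 75.8 CPM in the other LPL:VLDL libraries. SNORA18 stood at 1036 CPM against 280 to 399.9 CPM, SNORA16A at 107 CPM against 20.7 to 41.9 CPM and SNORA7B at 91.7 CPM against 20.7 to 34.97 CPM. SNORA20 stood at 87.3 CPM against 34.6 to 49.1 CPM, SNORA71A at 52.1 CPM against 6.97 to 15.2 CPM and SNORA71D at 38.2 CPM against 14.7 to 20.4 CPM. The GKT136901 library of experiment 5 was low for 3 members. SNORA16A stood at 21.0 CPM there against 38.4 to 43.7 CPM, SNORA20 at 31.1 CPM against 49.0 to 52.9 CPM and SNORA7B at 19.3 CPM against 30.5 to 34.3 CPM.

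The remaining 4 came from 4 libraries. SNORA7B was low in the VLDL library of experiment 5, at 30.8 CPM against 38.5 to 41.7 CPM. SNORA74A was low in the LPL:VLDL library of experiment 2, at 28.2 CPM against 41.1 to 45.6 CPM. SNORA20B was high in the LPL:VLDL library of experiment 5, at 4.27 CPM against 0.416 to 1.22 CPM, and SNORA50C in the GKT136901 library of experiment 2, at 12.7 CPM against 6.43 to 8.23 CPM.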

How the results depend on the processing

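The count of 0 called H/ACA snoRNAs in each treatment comparison held under the other scalings, filters and tools, with the replicate block and without each library in turn. The replicate block called 1 gene, a miRNA gene, between LPL:VLDL and VLDL, and changed no other count of calls. The count of members called between experiments was 11 to 20 under the other scalings, filters and tools and 11 to 19 without 1 library. It was 8 without experiment 2, all 8 among the 14. The share of all genes called in each setting is not given here, so whether members moved with it cannot be read from these counts. The difference in H/ACA share between GKT136901 and LPL:VLDL turned to -0.000753 percentage points without experiment 2 and ran from -0.0108 to 0.0151 without 1 library. The log2 ratio to C/D snoRNAs in the same comparison ran from -0.0377, without LPL:VLDL replicate 5, to 0.160. SNORA47 between LPL:VLDL and VLDL ran from -0.14, without LPL:VLDL replicate 2, to 0.92. Single calls between experiments were also lost without the filter, SNORA66 at adjusted p = 0.0620 and SNORA75 at 0.114. Beside what is stated with each result, the cause of these changes was not tested. Depth limits the 42 counted members that were not tested and members such as SNORA81 with 2 to 42 counts per library.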
